A study of Mus musculus with 2 samples.

Results

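Trap1a, Rhox5, Pet2 and Spinkl are 4 of the 32285 genes listed for J558 allograft tumors, and they are described here in single J558 cells and in the other cells of the same tumors. J558 is a mouse plasmacytoma line, a tumor of antibody-secreting B lineage cells, that secretes an immunoglobulin with a lambda light chain. The 4 genes were chosen by their high level in J558 cells of these same libraries, so that height is a description and not a result. Tumors were grown under the skin of female BALB/c mice, which are immunocompetent hosts, and are labeled day 6. One group received vehicle (0.5% methylcellulose) and the other TAK-931, an inhibitor of the replication kinase CDC7, at 60 mg/kg once daily by mouth for 6 days. Each group had 1 library, so no spread between animals could be measured, no p-value was computed, and every interval below is a 95% interval that covers counting error only.

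Trap1a encodes P1A, a classical tumor rejection antigen of BALB/c tumors. P1A is nearly silent in normal adult tissues outside the germ line and placenta, and a peptide of it is presented by the class I molecule H-2Ld to CD8 T cells, which can then recognize the tumor cell. Rhox5 (also called Pem) is the best studied gene of the X-linked Rhox homeobox cluster, whose members are expressed mainly in reproductive tissues and placenta. Pet2 was named as a plasmacytoma-expressed transcript and codes for a protein of the WD-repeat DCAF8-like family. Spinkl encodes a small Kazal-type protein of the serine protease inhibitor family.

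Of the 4 genes, 3 lie on the X chromosome. In the GRCm38 build with the GENCODE vM21 annotation, Trap1a (ENSMUSG00000051257) spans chrX:139333683-139338169 on the plus strand, with 1 transcript of 3 exons. Rhox5 (ENSMUSG00000095180) spans chrX:37804842-37808876 on the plus strand and codes for 213 residues. Pet2 (ENSMUSG00000035395, Dcaf8l in RefSeq) spans chrX:89403848-89409689 on the minus strand, with up to 12 exons and 747 coded residues. Spinkl (ENSMUSG00000053729) is the autosomal gene of the group, on chromosome 18 from 44166356 to 44175074 on the minus strand, and codes for 90 residues. Trap1a is overlapped on the opposite strand by the noncoding gene Platr21, and the strand setting of the counting is not given in the sources used here.

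The part of Trap1a that matters for recognition is short, so the coding bases of residues 35 to 43 of P1A, the stretch that holds the H-2Ld-presented peptide, are shown here. They lie in exon 1 at chrX:139334056-139334082 on the plus strand and were read from the GENCODE coding sequence of the C57BL/6 reference. The libraries count the 3′ ends of transcripts, so they do not read these bases, and no statement on the peptide's sequence in the tumors can be made.

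P1A residues 35 to 43: ctgccttatctagggtggctggtcttc

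Germ-line genes of this kind are known to be held silent in most somatic cells by methylation of CG dinucleotides around their starts, which was not measured here. The promoters of Trap1a and Rhox5 are shown with every CG in capitals, to let a reader see where such sites lie. They are RefSeq sequences of GRCm38.p6, from 250 bases before the start to 50 bases after it, at chrX:139333433-139333732 and chrX:37754358-37754657, both on the plus strand. The Rhox5 start of RefSeq lies upstream of the GENCODE gene span given above, so this window is that of a distal start. It ends at 37754657, whereas the GENCODE span begins at 37804842. Which start is used in these tumors was not measured, and the window of the GENCODE start is not shown. The letters CG, which read the same on both strands, occur 8 times in the Trap1a window and 5 times in the Rhox5 window, against a median of 7 over 32851 promoters. At most 8 were found in 54.2% and at most 5 in 43.6% of those promoters. By this count neither window stood far from the middle of all promoters.

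Trap1a promoter: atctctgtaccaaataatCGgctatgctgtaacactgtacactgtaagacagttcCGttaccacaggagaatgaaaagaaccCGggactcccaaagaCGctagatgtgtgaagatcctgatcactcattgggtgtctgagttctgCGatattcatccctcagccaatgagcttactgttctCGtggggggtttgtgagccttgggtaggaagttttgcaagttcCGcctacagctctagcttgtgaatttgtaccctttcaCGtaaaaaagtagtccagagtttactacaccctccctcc

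Rhox5 promoter: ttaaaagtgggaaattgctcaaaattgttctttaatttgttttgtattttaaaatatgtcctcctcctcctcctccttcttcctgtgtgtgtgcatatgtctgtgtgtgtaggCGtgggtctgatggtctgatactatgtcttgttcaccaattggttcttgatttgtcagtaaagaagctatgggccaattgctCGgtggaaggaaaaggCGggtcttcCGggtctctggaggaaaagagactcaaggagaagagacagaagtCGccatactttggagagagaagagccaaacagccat

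The vehicle library held 4565 barcodes with 144767193 unique molecular identifiers (UMIs, tags that each count 1 captured transcript), and the TAK-931 library 6558 barcodes with 77369283 UMIs. The libraries shared 8 barcode sequences. A barcode was kept when it held more than 2000 genes and less than 15% of its UMIs came from mitochondrial genes, which left 3441 in vehicle and 3488 in TAK-931. A kept barcode was called a J558 cell when the summed level of Iglc1, Iglv1 and Pou2af1 lay over 3525 CPM (UMI counts scaled to the same total in every cell or class), the point that best divided the 2 humps of that measure, so the 4 members played no part in the call. This gave 2994 J558 cells in vehicle (87.0% of kept barcodes, interval 85.8 to 88.1%) and 122 in TAK-931 (3.50%, interval 2.91 to 4.16%). The lambda constant gene Iglc3, the alpha heavy chain Igha and Jchain, none of which set the call, were found in at least 99.9% of J558 cells of each library. Median depth was 42491 UMIs per J558 cell in vehicle and 73592 in TAK-931.

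Few barcodes lay near the dividing point. Within 0.25 log10 units of it were 43 vehicle barcodes, 39 of them below, and 18 TAK-931 barcodes, 15 of them below. The 3 vehicle barcodes just over it had rule levels of 3631, 3692 and 5473 CPM and 65, 57 and 0 Trap1a UMIs, and the 3 just under it had 3400, 3229 and 3222 CPM and 54, 74 and 45 Trap1a UMIs. The 3 TAK-931 barcodes just over it had 3746, 5671 and 5681 CPM and 1, 3 and 0 Trap1a UMIs, and the 3 just under it had 3117, 2753 and 2642 CPM and 0, 0 and 54. Barcodes under the cut were not all of other types: 43 vehicle and 6 TAK-931 ones fell in the J558 clusters of an unsupervised clustering that left out the members. Those 43 cells had 1455 CPM of Trap1a, 630 of Rhox5, 326 of Pet2 and 581 of Spinkl.

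Barcodes over the cut that fell in clusters of other cell types are a second group to be kept apart, since they made up 30 of the 122 TAK-931 J558 cells but only 14 of the 2994 in vehicle. Each of these held Xist, the noncoding RNA of the inactive X chromosome, at 311 CPM in vehicle and 277 CPM in TAK-931. J558 cells inside J558 clusters (2980 in vehicle and 92 in TAK-931) had 1.24 and 7.01 CPM of Xist, and cells outside the J558 class and clusters had 823 and 702 CPM. Summed markers of another class at 10% or more of that class's own level were carried by 47 vehicle and 32 TAK-931 J558 cells. The ratios and shares below are therefore given over all J558 cells and, for the main ones, over those inside J558 clusters. The part of such mixed barcodes in each difference was not tested further.

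Almost every J558 cell of the vehicle tumor carried all 4 transcripts. Trap1a stood at 1454 CPM (interval 1447 to 1460) over summed J558 cells, Rhox5 at 552 (548 to 556), Spinkl at 518 (514 to 522) and Pet2 at 253. Without any thinning of depth, at least 1 UMI of Trap1a was found in 2992 of 2994 cells, of Rhox5 in 2985, of Spinkl in 2978 and of Pet2 in 2912. In the middle 50% of cells Trap1a ranged from 1155 to 1703 CPM, with a median of 1428. Single cells of the vehicle library reached 5364 CPM of Trap1a and 362 UMIs.

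The few J558 cells left in the TAK-931 library also carried the 4 transcripts. Trap1a was found in 121 of 122 cells, Spinkl in 119, Rhox5 in 117 and Pet2 in 112. Summed levels were 1818 CPM for Trap1a (interval 1790 to 1846), 425 for Rhox5 (411 to 439), 334 for Spinkl (322 to 346) and 199 for Pet2 (190 to 208). Trap1a was thus higher and the other 3 were lower than in vehicle, while per-cell values of the 2 libraries overlapped for every member. The middle 50% of TAK-931 cells ranged from 1319 to 2162 CPM for Trap1a.

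**Figure D1:**
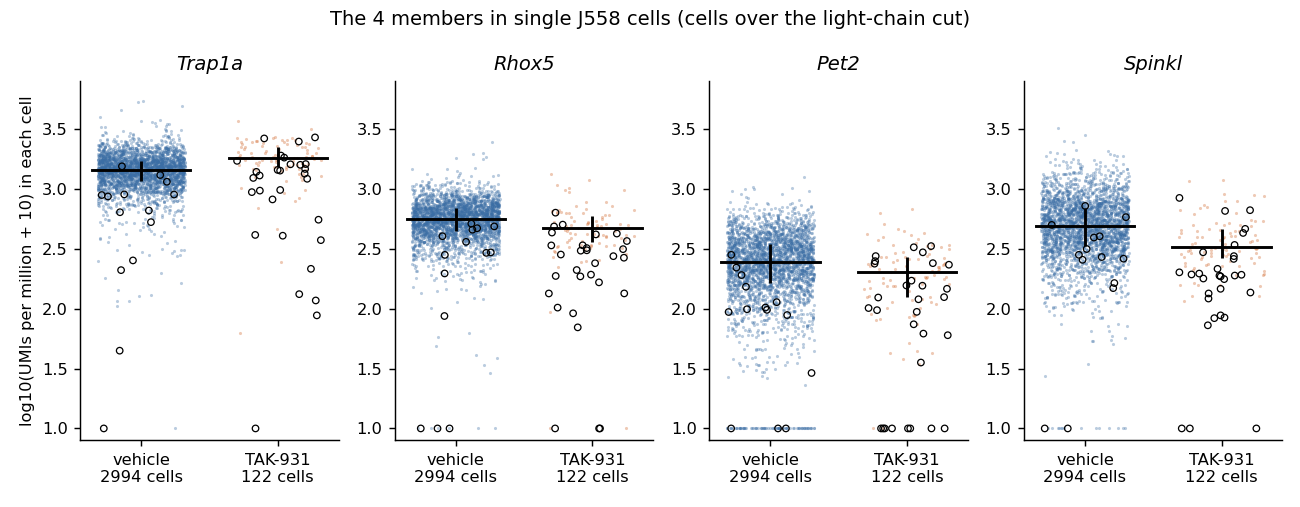
Level of each member in every J558 cell, as log10 of CPM plus 10 (vertical axis), by library (2994 vehicle and 122 TAK-931 cells). Small points are cells in J558 clusters, open circles are cells over the light-chain cut that fell in other clusters, and black bars give the median and the middle 50% of cells in J558 clusters. Open circles lie mostly below the medians and hold the TAK-931 cell without a Trap1a UMI.

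As a log2 ratio of TAK-931 over vehicle, Trap1a differed by 0.32 (interval 0.30 to 0.35), Rhox5 by -0.38 (-0.42 to -0.33), Pet2 by -0.35 (-0.42 to -0.28) and Spinkl by -0.63 (-0.69 to -0.58). None of the 4 differed by 2-fold or more, against 9.69% of 12482 genes that were higher and 5.13% that were lower by 2-fold or more in the same cells. A gene entered this set with at least 50 UMIs in J558 cells of both libraries together. The members had 1742 to 15929 UMIs in TAK-931 alone, so their ratios carry less counting error than those of scarce genes. The median ratio of all genes was 0.02 and the middle 50% of genes lay between -0.31 and 0.39. Over all J558 cells Trap1a lay inside the middle 50% of genes, with 28.3% of genes at or above it. Rhox5 and Pet2 had 21.3% and 22.8% of genes at or below them, and Spinkl had 11.3%.

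Inside J558 clusters the gain of Trap1a was larger and the other differences were smaller. Levels were 1458 CPM in vehicle and 1912 in TAK-931 for Trap1a, 553 and 466 for Rhox5, 254 and 214 for Pet2, and 519 and 361 for Spinkl. The log2 ratios were 0.39 (interval 0.37 to 0.42), -0.25 (-0.30 to -0.20), -0.24 (-0.32 to -0.17) and -0.52 (-0.58 to -0.47), respectively. All 4 kept their sign. Over 12098 genes inside J558 clusters the median ratio was -0.04 and the middle 50% lay between -0.36 and 0.28, while 5.44% were higher and 6.17% lower by 2-fold or more. Against these genes Trap1a lay outside the middle 50%, with 19.0% of genes at or above it, whereas Rhox5, Pet2 and Spinkl had 32.6%, 33.1% and 16.6% at or below them. Among J558 cells without an Xist UMI (2921 and 76), a choice made after seeing the data, Pet2 differed by -0.14 (-0.23 to -0.06). Over all J558 cells, taking the mean of each cell's CPM in place of the sum moved Trap1a from 0.32 to 0.19. With 1 tumor library per group, the treatment and the animal cannot be told apart.

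**Figure D2:**
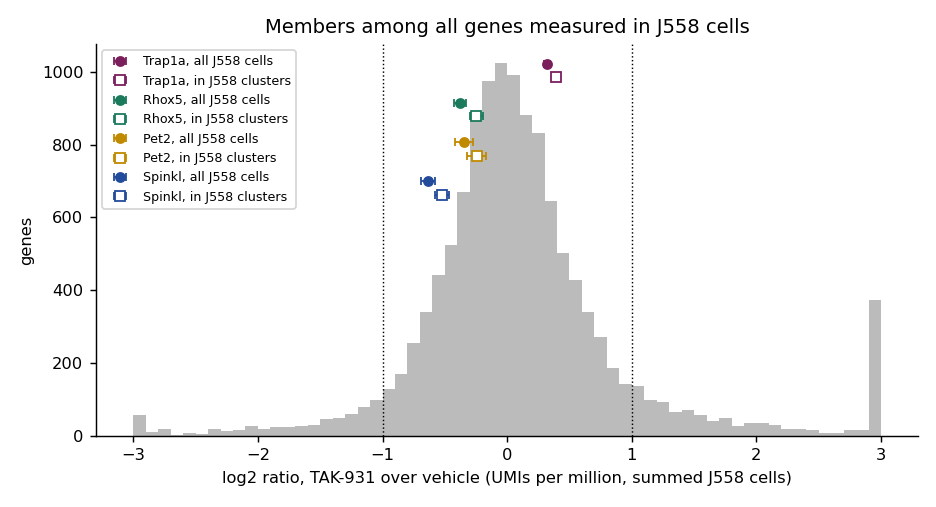
Histogram of the log2 ratio (TAK-931 over vehicle, horizontal axis) of 12482 genes with at least 50 UMIs in summed J558 cells, with genes beyond 3 in either direction drawn in the end bars. Filled circles give the members over all J558 cells and open squares those inside J558 clusters, with counting intervals and at heights that carry no value; dotted lines mark a 2-fold difference, and all 4 members lie between them.

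Deeper cells show more genes, so each cell was also thinned at random to 10000 UMIs before the share of cells with a UMI was taken. This left out 40 vehicle and 2 TAK-931 cells that were shallower. At that depth Trap1a was kept by 99.9% of 2954 cells in vehicle (interval from 99.7%) and by 98.3% of 120 cells in TAK-931 (94.1 to 99.8%). Rhox5 was kept by 98.8% and 93.3%, Spinkl by 97.1% and 91.7%, and Pet2 by 86.3% and 74.2% of cells, respectively. The differences, TAK-931 minus vehicle, were -1.57 percentage points for Trap1a (interval -5.77 to -0.34), -5.48 for Rhox5 (-11.4 to -2.20), -5.46 for Spinkl (-11.8 to -1.65) and -12.1 for Pet2 (-20.7 to -5.01).

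Inside J558 clusters the differences were smaller in size in this draw. They were -1.03 percentage points for Trap1a (interval -5.90 to -0.11), -3.34 for Rhox5 (-9.72 to -0.63), -1.40 for Spinkl (-7.80 to 1.35) and -5.26 for Pet2 (-14.5 to 1.54). Intervals of Spinkl and Pet2 included 0.

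The difference of Pet2 moved with the random draw and with the cells taken. It was -15.2 points (-24.9 to -7.04) in cells of J558 clusters in place of the cut, -16.6 (-25.4 to -8.92) without the cells of low X-linked share described below, and -1.04 (-10.8 to 5.37) in cells without an Xist UMI. The share expected over all possible draws, which depends on no single draw and was computed after seeing the data, gave Pet2 differences of -11.9 points over all J558 cells, -6.37 inside J558 clusters, -5.95 in clusters in place of the cut, -11.4 without the cells of low X-linked share and -5.38 without Xist. By that measure Trap1a, Rhox5 and Spinkl differed by -1.56, -5.76 and -5.81 points over all J558 cells and by -0.489, -2.93 and -2.10 inside J558 clusters. All 4 were thus lower in TAK-931 and nearer to vehicle inside J558 clusters, with no interval computed for the expected shares.

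At 20000 UMIs, a depth that 2829 vehicle and 105 TAK-931 cells reached, every such TAK-931 cell held Trap1a and Rhox5 in the draw taken, and their differences turned to 0.0707 points each over all J558 cells (interval -3.46 to 0.257). Pet2 differed there by -6.66 points (-14.0 to -2.07) and Spinkl by -0.564 (-4.81 to 0.278). Inside J558 clusters the same differences were 0.0355 for Trap1a, 0.106 for Rhox5, -2.83 for Pet2 (-10.2 to 0.669) and -2.09 for Spinkl (-8.05 to -0.320). These values again rest on 1 draw. Expected over all draws, the differences at this depth were 0.0410 for Trap1a, -0.268 for Rhox5, -4.53 for Pet2 and -1.70 for Spinkl over all J558 cells, and 0.0361, -0.0777, -2.13 and -0.0586 inside J558 clusters. Rhox5 was thus not higher in TAK-931 by that measure, and Spinkl inside J558 clusters stood at nearly the same share in both libraries.

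**Figure D3:**
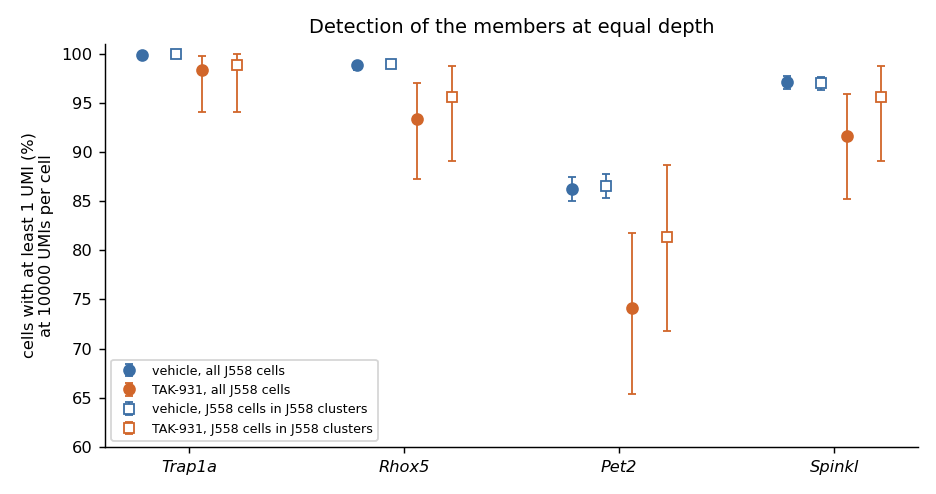
Share of J558 cells with at least 1 UMI of each member (vertical axis, percent, drawn from 60%) after thinning to 10000 UMIs per cell, by library, with exact 95% binomial intervals. Filled circles are all J558 cells and open squares those in J558 clusters, where the gap between libraries is smaller for each member.

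Most J558 cells held all 4 members at equal depth. At 10000 UMIs, all 4 were detected in 2456 of 2954 vehicle cells (83.1%, interval 81.7 to 84.5%) and in 79 of 120 TAK-931 cells (65.8%, 56.6 to 74.2%). Inside J558 clusters these shares were 83.3% and 74.7%. No J558 cell at this depth lacked all 4, which allows a share of up to 0.125% in vehicle and 3.03% in TAK-931 by the exact interval. Pet2 was the one most often missing on its own, in 383 vehicle and 23 TAK-931 cells, and Trap1a was never the only one missing. Trap1a and Rhox5 were found together in 98.8% of cells in vehicle and in 92.5% in TAK-931, where the product of the separate shares was 98.7% and 91.8%. Pet2 and Spinkl were found together in 83.9% and 70.0%, where that product was 83.8% and 68.0%. Joint detection of these pairs thus lay near what the separate shares give.

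Within the J558 cells of vehicle, counts of one member said little about counts of another. Over the 6 pairs, Pearson's r of thinned counts lay between 0.0031 and 0.091 over 2954 cells, which share a library and are given as a description only. In TAK-931 it lay between -0.011 and 0.18 over 120 cells, and between -0.12 (Trap1a with Spinkl) and 0.24 (Trap1a with Pet2) over the 91 of them inside J558 clusters. The spread of each member was wider than counting alone gives. The variance of thinned counts was 2.20 times the mean for Trap1a, 2.41 for Spinkl, 1.55 for Pet2 and 1.46 for Rhox5, where pure counting at a constant level would give 1. Zeros were accordingly more frequent than counting at a constant level gives: 2.88% against 0.491% for Spinkl, 13.7% against 7.83% for Pet2 and 1.18% against 0.352% for Rhox5.

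Part of this spread followed the cell cycle genes. The vehicle J558 cells inside J558 clusters were divided at the median level of 18 genes of the G2/M phases. Cells above it had 1368 CPM of Trap1a against 1580 in the others, a log2 difference of -0.21 (interval -0.22 to -0.20), and Rhox5 differed by -0.22. Pet2 (221 against 299 CPM, -0.44) and Spinkl (466 against 591 CPM, -0.34) differed by more. The same 4 differences in TAK-931 were -0.14, -0.19, -0.40 and -0.51 over 46 cells on each side. Cells above the median were also deeper, with a median of 51091 against 36595 UMIs in vehicle.

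The 3 J558 clusters carried all members. In vehicle, the cluster with the least of the G2/M list (1234 cells, 172 CPM of it) had the most Trap1a, 1583 CPM, and the one with the most of it (1018 cells, 2614 CPM) had the least, 1371 CPM. The third, with 1258 CPM of the list in 728 cells, had 1431 CPM of Trap1a and the most Spinkl, 617 CPM against 583 and 410. In TAK-931 these clusters held 12, 33 and 47 J558 cells with 1812, 1939 and 1905 CPM of Trap1a, so Trap1a was higher than in the same vehicle cluster in each of the 3. Spinkl was lower than in the same vehicle cluster in each of the 3, at 489, 293 and 402 CPM. For Rhox5 and Pet2 the difference was not below vehicle in each cluster: Rhox5 stood at 619, 453 and 448 CPM against 593, 510 and 572 in vehicle, and Pet2 at 268, 216 and 202 against 306, 209 and 259. The 2 values above vehicle did not differ beyond counting error, with 559 to 684 against 586 to 600 CPM for Rhox5 and 200 to 233 against 205 to 212 CPM for Pet2.

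J558 cells without a UMI of the antigen transcript were rare. Of 2994 vehicle J558 cells, 2 had no Trap1a UMI. The first lay in a monocyte/macrophage-like cluster and had no UMI of any member. The second lay in a J558 cluster, had 28297 UMIs, and held 0 Trap1a, 0 Rhox5, 1 Pet2 and 56 Spinkl UMIs. The 1 TAK-931 cell without Trap1a lay in a monocyte/macrophage-like cluster. Inside J558 clusters, Trap1a lay below 0.1 times its median in 7 of 2980 vehicle cells (0.235%, interval 0.0945 to 0.483%) and in 1 of 92 TAK-931 cells (1.09%, 0.0275 to 5.91%).

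The pattern of that second vehicle cell, with the 3 X-linked members nearly gone and the autosomal Spinkl kept, led to a look at all other X-linked genes, a choice made after the values were seen. The share of UMIs from 1080 X-linked features, without the members, Xist and immunoglobulin genes, had a median of 2.70% in vehicle and 2.90% in TAK-931 over J558 cells inside J558 clusters. It lay under 0.5% in 6 cells, 5 in vehicle and 1 in TAK-931, and the next lowest cells had 0.767% and 1.96%. These were 0.167% of vehicle J558 cells (interval 0.0542 to 0.389%) and 0.820% of TAK-931 J558 cells (0.0208 to 4.48%), intervals that overlap.

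The 6 cells were poor in the 3 X-linked members and mostly not in Spinkl. Trap1a ranged from 0 to 12 UMIs (0 to 348 CPM), Rhox5 from 0 to 1 and Pet2 from 0 to 1. Spinkl had 10 UMIs in the TAK-931 cell, 14, 65, 56 and 28 in 4 vehicle cells, and 0 in the other vehicle cell. That cell, the shallowest with 9501 UMIs, also carried markers of another class. None of the 6 had an Xist UMI.

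In 2 of the vehicle cells the rest of the genome was even. The first of them had 42325 UMIs from 5381 genes, and its share of UMIs from each of the 19 autosomes lay between 0.937 and 1.21 times the J558 median, while its X-linked share lay at 0.0633 times it. This cell held 8 Trap1a, 1 Rhox5, 0 Pet2 and 14 Spinkl UMIs. The other, with 34491 UMIs, had autosomes between 0.946 and 1.24 times and X-linked genes at 0.121 times the median, and held 12 Trap1a, 1 Rhox5, 0 Pet2 and 65 Spinkl UMIs. In the remaining 4 cells autosomes were uneven as well, from 0.0720 to 3.08 times the median, whereas in 95% of vehicle cells the lowest autosome lay over 0.558 and in 95% the highest lay under 1.46. Over all 2980 vehicle cells, the X-linked share fell below 0.2 times its median in 5 cells and the share of any 1 autosome in 0 to 3. What sets these cells apart was not tested.

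Inside J558 clusters the X-linked share went weakly with the members, and with Rhox5 the most. In vehicle, r with the share was 0.39 for Rhox5, 0.24 for Trap1a, 0.12 for Pet2 and 0.058 for Spinkl over 2980 cells. Without the low cells these values were 0.38, 0.22, 0.10 and 0.084, so Pet2 stood little above Spinkl. In TAK-931 they were 0.37, 0.37, 0.29 and 0.13 over 92 cells, and 0.30, 0.24, 0.24 and 0.22 over 91 without the low cell. Cells share a library and a base of UMIs, so the values are a description.

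**Figure D4:**
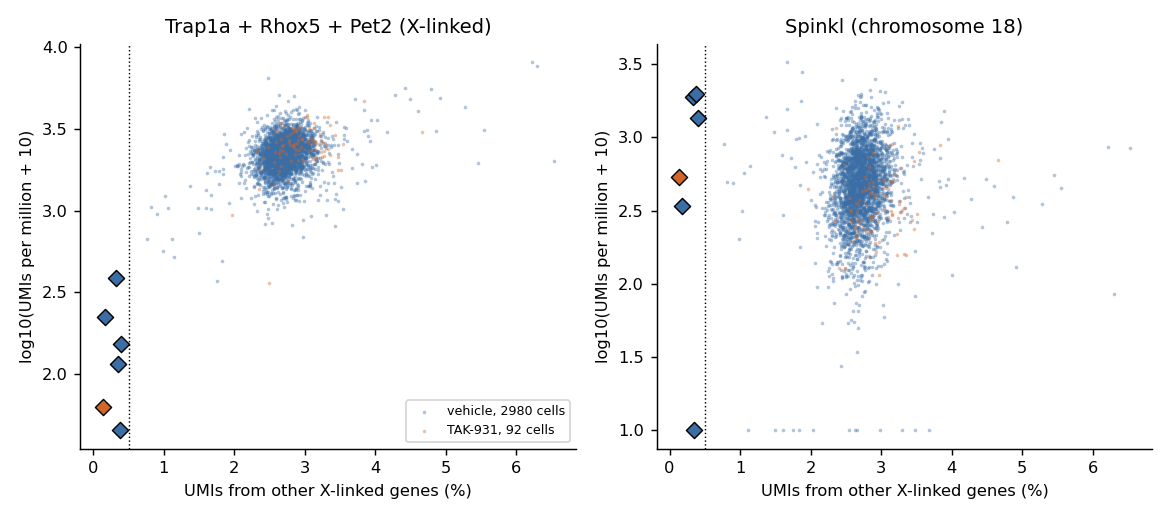
Each point is a J558 cell inside a J558 cluster (2980 vehicle, 92 TAK-931), by its share of UMIs from other X-linked genes (horizontal axis, percent) and the log10 level plus 10 of the 3 X-linked members together or of Spinkl (vertical axes). Diamonds left of the dotted line at 0.5% are the 6 cells of lowest X-linked share, low in the X-linked members, with Spinkl present in 5 of the 6.

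In the other cells of the tumors the 4 transcripts were found at low levels. Over all cells outside the J558 class and clusters of vehicle they stood at 1.01% of their J558 level for Trap1a, 1.35% for Rhox5, 1.80% for Spinkl and 0.184% for Pet2 (interval 0.0380 to 0.538%). Clusters were named by fixed marker lists and are called by the type they are like. In vehicle, Trap1a stood at 24.0 CPM in monocyte/macrophage-like cells (212 cells, interval 18.5 to 30.7), 9.46 in fibroblast-like cells (47 cells, 5.04 to 16.2), 7.69 in endothelial-like cells (81 cells, 3.97 to 13.4) and 6.37 in dendritic-like cells (36 cells, 1.31 to 18.6). The last 3 could not be ordered within their intervals. A single monocyte/macrophage-like cell held 16 of the 64 UMIs of its class, and without it the level was 18.1 CPM (13.4 to 24.0).

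In TAK-931, Trap1a was lower than in vehicle in monocyte/macrophage-like cells, with intervals that did not overlap. It stood at 5.81 CPM in 2005 such cells (interval 5.02 to 6.70), 4.28 in dendritic-like (2.28 to 7.33), 3.20 in endothelial-like (1.79 to 5.28) and in fibroblast-like cells (1.70 to 5.47), classes whose intervals overlapped those of vehicle. It was 3.05 in CD4 T-like, 2.26 in CD8 T-like (1.46 to 3.34) and 2.15 in NK-like cells. Vehicle held 10 CD8 T-like and 10 NK-like cells with no Trap1a UMI. Its 3 CD4 T-like cells held 2 Trap1a UMIs, or 25.2 CPM (interval 3.05 to 91.1). These vehicle classes hold too few cells to be set beside those of TAK-931. Among the TAK-931 classes, the monocyte/macrophage-like and the CD8 T-like value were the one pair whose intervals did not overlap. These levels were between 0.118% and 0.320% of that in J558 cells of the same library.

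Shares of cells at equal depth were low as well. At 4000 UMIs per cell, Trap1a was found in 4.25% of monocyte/macrophage-like cells of vehicle (interval 1.96 to 7.91%), 3.70% of endothelial-like and 4.26% of fibroblast-like cells. In TAK-931 it was found in 2.00% of monocyte/macrophage-like (1.43 to 2.71%) and 2.15% of CD8 T-like cells (1.12 to 3.73%). Median depths of these 2 classes were 14482 and 15046 UMIs before thinning. J558 cells at 4000 UMIs gave 99.1% in vehicle and 94.3% in TAK-931. These shares come from 1 random draw, in which the intervals of both TAK-931 classes overlapped. Expected over all draws, the TAK-931 shares were 2.37% in monocyte/macrophage-like and 0.969% in CD8 T-like cells, the same order as their CPM. The source of these UMIs was not tested, and no expression is read from them. The vehicle share in monocyte/macrophage-like cells moved with the draw and the filters, from 1.45% with the J558 cut 0.5 log10 units lower to 7.34% with a lower minimum of genes per barcode, 7.58% without the cell of highest Trap1a count and 7.62% with under 10% mitochondrial UMIs. Expected over all draws it was 5.31%, or 4.87% without that cell. Unthinned shares in monocyte/macrophage-like cells were 15.6% in vehicle and 8.58% in TAK-931, against 3.95% in TAK-931 CD8 T-like cells.

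The members were also set against Iglc1, the tumor's light chain, as a description, since Iglc1 is one of the 3 genes that set the J558 call. J558 cells held 2.27 Trap1a UMIs per 100 of Iglc1 in vehicle and 2.66 in TAK-931. Monocyte/macrophage-like cells held 2.48 (interval 1.91 to 3.16) and 2.00 (1.73 to 2.31), or 1.87 in vehicle without the cell of 16 UMIs. All cells outside the J558 class and clusters held 1.71 (1.38 to 2.09) and 1.86 (1.65 to 2.10), below the J558 ratio in both libraries.

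Pet2 was the scarcest outside the tumor cells. It had 3 UMIs in 404 such cells of vehicle and 10 in 3360 of TAK-931, or 0.465 CPM (interval 0.0960 to 1.36) and 0.166 CPM (0.0796 to 0.305). No UMI was found in the 81 endothelial-like and 47 fibroblast-like cells of vehicle, which allows up to 1.92 and 2.18 CPM by 3 counts of the class total, or 2.36 and 2.68 CPM by the upper end of the exact Poisson interval. Per 100 Iglc1 UMIs Pet2 stood at 0.0539 (0.0111 to 0.158) outside J558 cells against 0.395 in them in vehicle, and at 0.0682 against 0.291 in TAK-931, below the J558 ratio in both libraries. Rhox5 and Spinkl per 100 Iglc1 in vehicle stood at 0.863 and 1.08 outside against 0.863 and 0.810 inside J558 cells, and in TAK-931 at 0.293 and 0.355 against 0.621 and 0.488. The values describe cells divided in part by Iglc1 itself, and nothing on the source of the UMIs is read from them.

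**Figure D5:**
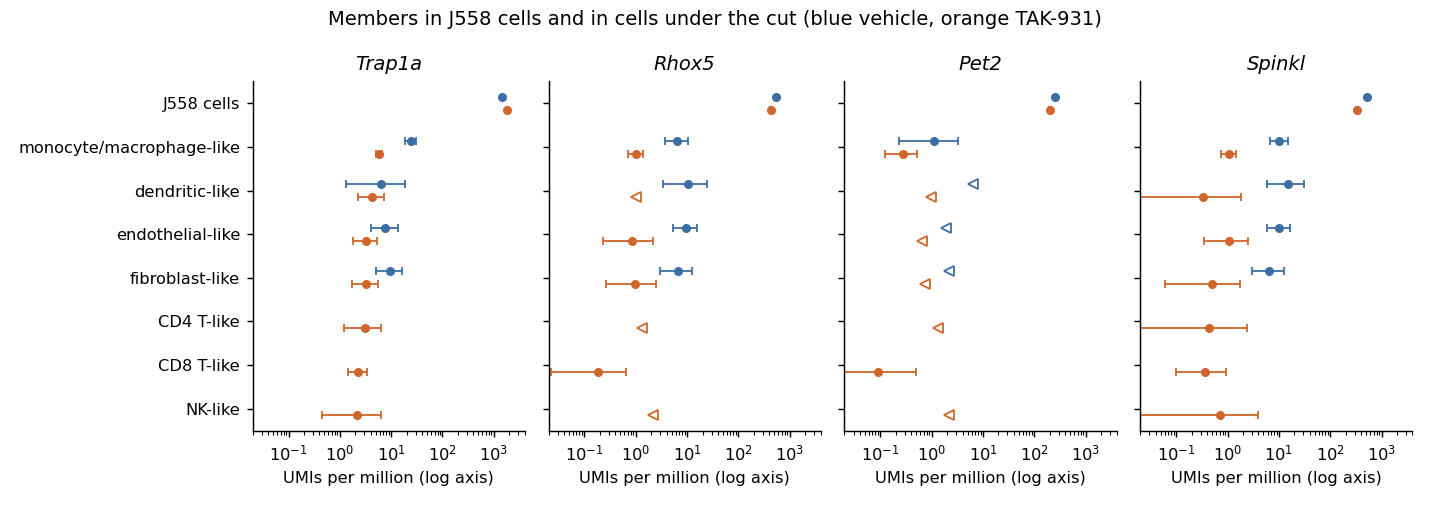
Level of each member in CPM on a log axis, by library, with exact Poisson intervals. Drawn are J558 cells and classes named after other cell types, under the light-chain cut and with at least 20 cells. Barcodes under the cut in J558 clusters are not drawn. Open triangles mark classes with 0 UMIs, at the level that 3 counts would give. Each class drawn other than J558 cells lies at least an order of magnitude under them for each member.

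The members were chosen for their height in J558 cells, so their place among genes ranked by it is a description. Ranked were 7871 genes with at least 50 UMIs in J558 cells of each library, by the smaller of both libraries' ratio of J558 cells to all cells under the cut. Ncan, Wfdc15a, Rhd, Endou, Rd3l, Large2, Bsn, Tuba3b, Bhlha15 and Tcam1 led, and Trap1a came 49, Spinkl 100, Rhox5 101 and Pet2 131. The 49 barcodes of J558 clusters under the cut counted there as other cells. With them left out, a choice made after seeing the data, Pet2 came 1, Trap1a 3, Rhox5 11 and Spinkl 21, and 1 of the 10 leading genes was shared with the first ranking (Endou). Cntn3, a neural adhesion protein, came 2, and Krt222, Homer2, Ovol3, Mzb1, Vpreb3, Endou and Xlr3a filled the leading 10. Mzb1 and Vpreb3 are genes of the B lineage, and Xlr3a is an X-linked lymphocyte-regulated gene. The members' places thus rest on how those 49 barcodes are counted.

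Over 13 classes by library with at least 20 cells, the 3 genes whose level ran most like each member were taken. For Rhox5 and Spinkl each was the nearest to the other, with r of 0.997 on log2(CPM + 5), followed by Rabggta. Hmx2, Rec114 and Gtf2a1l came nearest to Trap1a, and Olfr11, Cyp2b10 and Tex13b to Pet2, with r between 0.992 and 0.999. With 2 J558 points far over the rest, such values are a description.

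Measured genes beside the members stood far under them. None of the 6 nearest genes of Pet2 and 2 of the 6 of Rhox5 could be matched to a measured gene, and the others are not analysed here. Of the 3 neighbors on each side of Trap1a, the overlapping Platr21 was the highest in J558 cells with 3.46 CPM in vehicle and 1.37 in TAK-931, and Pwwp3b, Rnf128 and Radx lay at or under 0.456 CPM. Rhox6 and Rhox7a, beside Rhox5, had 2 and 8 UMIs over all vehicle J558 cells and 0 in TAK-931. Spink12 beside Spinkl had 7 and 0, and Spink11 had none.

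Rhox5 was the only gene of the Rhox cluster in 10% or more of J558 cells. Of 32 Rhox genes, 20 had no UMI in vehicle J558 cells and 29 had none in TAK-931 J558 cells. The next highest after Rhox5 in vehicle were Rhox2h with 0.917 CPM (1 UMI in TAK-931) and Rhox2d with 0.316 CPM. In TAK-931 the next was Rhox2a, with 4 UMIs and 0.456 CPM, a log2 ratio to vehicle of 2.34 (interval 0.25 to 4.06). Rhox2 genes are close copies among which reads may be split or dropped. Likewise Spinkl was the only one of 13 Spink genes in 10% or more of cells, and Spink10 followed with 0.534 CPM in vehicle and 1.14 in TAK-931.

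Other genes of a germ-line list were present in part. Of 41 listed, 21 had no UMI in vehicle J558 cells, and 5 were in 10% or more of them. These were Xlr3a (34.7 CPM in vehicle and 32.3 in TAK-931), Asz1 (33.6 and 26.2), Xlr3c (28.6 and 23.3), Piwil2 (4.56 and 4.45) and Brdt (3.05 and 2.97). The listed Xlr genes are of an X-linked lymphocyte-regulated family, so their presence in a B lineage tumor is not read as germ-line expression. Asz1 and Piwil2 act in the piRNA pathway that silences transposons in germ cells, and Brdt is a testis bromodomain protein. The Magea genes, the classical cancer-testis family, had no UMI in J558 cells but for 3 of Magea8 in vehicle. Of the 8 with at least 50 UMIs none differed by 2-fold, against 9.69% of genes higher and 5.13% lower, and their median log2 ratio was -0.18, or -0.05 inside J558 clusters, against 0.02 and -0.04 over all genes. All 8 reached 50 UMIs in vehicle and 3 of them in TAK-931, where J558 cells were few, so the minimum favors genes present in vehicle.

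Xlr4b, Xlr4a and Xlr4c, X-linked genes related to Xlr3a, fell under that minimum and were higher in TAK-931; they are named after their values were seen. Xlr4b had 3 UMIs in vehicle and 25 in TAK-931 J558 cells (0.0226 and 2.85 CPM, log2 ratio 6.98, interval 5.27 to 9.35) and was found in 13.9% of TAK-931 J558 cells. Xlr4a (6 and 12 UMIs) and Xlr4c (5 and 10 UMIs) each differed by 4.92. Inside J558 clusters Xlr4b stood at 0.292 CPM in TAK-931, a log2 ratio of 3.69 (0.11 to 6.81), Xlr4a had none there, and the interval of Xlr4c included 0. Cells outside the J558 class and clusters of TAK-931 had 902 UMIs of Xlr4b, 290 of Xlr4a and 359 of Xlr4c, and the part of mixed barcodes in these differences was not tested further. The 3 are close copies among which reads may be split or dropped.

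The machinery that would present the P1A peptide was transcribed in J558 cells of both libraries. All 16 listed genes were found in 10% or more of J558 cells. H2-D1, a class I heavy chain, stood at 1263 CPM in vehicle and 1489 in TAK-931, B2m at 803 and 1139, and the immunoproteasome gene Psmb8 at 250 and 355. Psme1 was lower in TAK-931, with 943 CPM in vehicle and 810 in TAK-931. The presenting chain of BALB/c, H-2Ld, has no gene in the C57BL/6 reference and no row of its own, so where its reads were counted is not known. TAK-931 values were above vehicle for 12 of 16 genes, with a median log2 ratio of 0.23 against 0.02 over all genes, and none differed by 2-fold, against 9.69% of genes higher and 5.13% lower.

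That median fell to 0.09, with 9 of 16 above 0, inside J558 clusters, where the median of all genes was -0.04. What lies behind this fall was not tested. There B2m differed by 0.32 (interval 0.29 to 0.36), Psmb8 by 0.40 (0.34 to 0.46), the peptide transporter Tap1 by -0.07 (-0.33 to 0.18) and the proteasome subunit Psmb10 by -0.53 (-0.63 to -0.43). H2-D1 differed by 0.08 (0.05 to 0.11).

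Of 9 genes that write, guide or remove DNA methylation, 8 had at least 50 UMIs and none differed by 2-fold, against 9.69% of genes higher and 5.13% lower. Dnmt1, which copies methylation after replication, stood at 87.0 CPM in vehicle and 98.8 in TAK-931, and its partner Uhrf1 at 46.4 and 59.3. Tdg, Tet3 and Dnmt3a followed with 41.3, 34.8 and 9.80 CPM in vehicle, and Dnmt3l had no UMI in J558 cells of either library. The median log2 ratio of the 8 was 0.22, and 0.15 inside J558 clusters, against 0.02 and -0.04 over all genes.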

How the data were processed

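The authors prepared droplet 3′ single-cell libraries from dissociated J558 allografts and deposited raw UMI counts per gene and barcode, made with Cell Ranger 6.0.0 and, per the submitters' processing notes, mm10. The study's methods name a human build for this step, while the features are mouse genes. Barcodes were filtered as the methods state (over 2000 genes, under 15% mitochondrial UMIs), and no doublet caller was run here.

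The J558 cut was Otsu's threshold on log10(CPM + 1) pooled over both libraries. Clusters came from scanpy 1.11.5 and leidenalg 0.10.2 at resolution 0.5, without the members and without integration; the rule that names them, and the rule for mixed barcodes, were written after the data were seen. Shares carry Clopper-Pearson, differences Newcombe, CPM exact Poisson and ratios exact binomial intervals at 95%. PCR duplicates were collapsed by UMI. Python 3.11.15, numpy 2.4.6 and scipy 1.17.1 were used, and the ratios and the thinning were tested on simulated data.

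The members and gene lists were chosen with earlier results of these data known. Genes named were mainly the members, up to 5 of highest CPM per list, the 3 most like each member and 3 neighbors on each side. Genes outside the 5 of highest CPM were also named in some lists, among them Psmb8, Psmb10 and Tap1 of the presentation list. Mitochondrial, ribosomal, immunoglobulin, Gm and Rik genes were left out. The 10 genes most restricted to J558 cells were named from their ranking. Cells under the cut in J558 clusters were left out of the other cells in that ranking, a choice made after seeing the data. A comparison of vehicle cells with and without Trap1a could not be made, as almost none lacked it.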

Additional observations from a re-analysis of the deposited data

How the results depend on the processing

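Of 189 alternative values, 134 moved by less than their counting interval, 53 moved by more and 2 turned their sign. All log2 ratios of the members kept their sign under every alternative run. With the J558 cut 0.5 log10 units lower, the log2 ratios of Trap1a, Rhox5, Pet2 and Spinkl were 0.21, -0.46, -0.44 and -0.72, and their share differences -14.4, -25.3, -26.3 and -26.2 percentage points. Under it, Trap1a and Rhox5 were found together in 96.7% of cells in vehicle and 71.0% in TAK-931, no member in 1.15% and 13.6%, and Trap1a in 1.45% of vehicle monocyte/macrophage-like cells. In cells of J558 clusters in place of the cut, the ratios were 0.38, -0.22, -0.23 and -0.51, the share differences of Rhox5 and Spinkl -1.72 and -0.276 points, and Trap1a with Rhox5 was in 96.9% of TAK-931 cells. In cells over the cut and in J558 clusters, the ratios were 0.39, -0.25, -0.24 and -0.52 and the share difference of Spinkl -1.40 points. Without barcodes that carry markers of another class they were 0.39, -0.26, -0.23 and -0.54, and -1.47 points. Without cells that hold an Xist UMI (chosen after seeing the data) the ratios were 0.38, -0.22, -0.14 and -0.52, the share differences of Rhox5 and Pet2 -1.52 and -1.04 points, and Trap1a with Rhox5 was in 97.3% of TAK-931 cells.

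The share difference of Pet2 depended on the draw: it was -15.2 points in J558 clusters in place of the cut and -16.6 without cells of low X-linked share, whereas the share expected over all draws (added after seeing the data) gave -5.95 and -11.4. At 5000 UMIs the share differences of Rhox5, Pet2 and Spinkl were -14.6, -4.97 and -16.2 points (expected over all draws, -10.7, -13.0 and -12.4), and Trap1a with Rhox5 was in 91.0% of cells in vehicle and 77.0% in TAK-931. At 20000 UMIs the differences of Trap1a and Rhox5 turned to 0.0707 points each, that of Spinkl was -0.564 (expected over all draws, 0.0410, -0.268 and -1.70, so Rhox5 kept its sign), and the pair was in 99.9% and 100% of cells; without thinning it was in 99.7% of vehicle cells. Scaled by the median gene, the Trap1a ratio was 0.30. By the mean of each cell's CPM, Trap1a and Pet2 were 0.19 and -0.47. Trap1a in TAK-931 monocyte/macrophage-like cells was 0.948% at 2000 UMIs and 2.72% at clustering resolution 1, and unthinned 8.58%, against 15.6% in vehicle. The causes of these shifts were not tested, beyond what fewer cells or UMIs give by construction.

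With 1 library per group, there was no replicate to leave out, and the spread between animals is unknown. No paired analysis was possible because each group had 1 library and no test was made. Only 122 J558 cells remained in TAK-931, so shares there are known to within several percentage points. Depth also limits Pet2, the lowest member, most.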

Other observations

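Barcodes left out for holding at most 2000 genes also carried the members. Over the J558 cut lay 694 such barcodes in vehicle, with 949 CPM of Trap1a (interval 910 to 990) and at least 1 UMI of it in 66.1%, and 345 in TAK-931, with 760 CPM (693 to 833) and 29.0%. Their median depth was 2481 and 995 UMIs. Under the cut, 420 vehicle barcodes had 66.2 CPM of Trap1a and 2630 TAK-931 barcodes had 9.78 CPM.

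Vehicle J558 cells inside J558 clusters were also set apart by their own Trap1a count at 10000 UMIs, as a description chosen after seeing the data. The 748 cells with at least 18 UMIs stood to the 910 cells with at most 11 by log2 differences of 0.14 in Rhox5, 0.15 in Pet2 and 0.09 in Spinkl. Of 8634 genes, 2 were higher by 2-fold or more (Tjp1 and Egr1) and 12 were lower. Among the 12 were S100a6, Cxcl2, Ctsc, the class II gene H2-Aa, Srgn and the mitotic gene Ube2c. Several rest on few UMIs. In cells of low and high Trap1a, S100a6 had 176 and 36 UMIs, Ctsc 171 and 40, and H2-Aa 257 and 84. Tjp1 had 96 and 201, and no interval is given. Barcodes with markers of another class were not removed here, and their part in these differences was not tested.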
